A study of Homo sapiens with 24 samples.

Results

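This account concerns 8 genes of the cell death machinery in SK-HEP-1 cells: APAF1 and the caspase genes CASP9, CASP2, CASP8, CASP10, CASP6, CASP1 and CASP4. They were selected by gene symbol from the deposited table of estimated counts, where they make up 8 of 58825 genes. SK-HEP-1 cells come from a human liver adenocarcinoma and were used as CRISPR interference (CRISPRi) lines in which a guide RNA leads an inactive Cas9 repressor to a promoter. The PURPL guide lines sg2, sg4, sg5 and sg6 each carried 1 guide against PURPL, a p53-induced long noncoding RNA, and the lines NTC1 and NTC2 each carried 1 non-targeting guide. Every line was given Nutlin-3a at 10 µM, which keeps MDM2 from binding p53 and so stabilises p53, or the vehicle DMSO, for 6 h. Cells were harvested 2 times per line and treatment, as numbers 1 and 3, so the 24 libraries comprise 8 from PURPL guide lines and 4 from NTC lines in each treatment. Because every guide was represented by 1 line, features of a line and effects of its guide cannot be told apart, and whether lines were clones or pools is not given in the sources used here.

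Caspases are cysteine proteases that are made as inactive precursors, so their mRNA level is not their activity. APAF1 assembles with cytochrome c released from mitochondria into the apoptosome, which activates the initiator caspase-9. Caspase-8 and caspase-10 are activated at death receptors, caspase-2 at a complex built by PIDD1 and CRADD, and caspase-1 and caspase-4 in the inflammatory arm that cleaves gasdermin D. APAF1 and several receptor genes of these pathways are known targets of p53.

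Library totals were 66.4 to 92.1 M estimated counts. The labels class the cells as endothelial, yet of 10 endothelial markers only ENG was abundant (20.8 to 180 CPM), while PECAM1 reached at most 0.0277 CPM and ERG was at 0 in all libraries. CPM are counts divided by the library total, here scaled by TMM, a normalisation that assumes most genes are equal between libraries. CDKN1A, a target of p53, rose by 4.07 (SE 0.16) in the PURPL guide lines and by 3.59 (SE 0.22) in the NTC lines on the log2 scale (edgeR adjusted p = 2.22e-10 and 9.73e-08). PURPL averaged 0.556 ± 0.204 CPM in the PURPL guide lines (SD, n = 8) and 8.35 ± 1.25 CPM in the NTC lines (SD, n = 4) in DMSO. Harvest 1 of sg2 with Nutlin-3a stood apart and is called the divergent library. Its slope of log2 level on transcript GC content was 1.27 per 10 points, while the remaining 23 libraries lay between -0.159 and 0.271. The summed level of 6 epithelial markers was 9000 CPM in it and at most 2606 CPM in the other PURPL guide libraries with Nutlin-3a, and that of 10 endothelial markers was 181 CPM and at most 51.7 CPM. These sums were mostly KRT8, KRT18 and ENG, which reached 5194, 3704 and 180 CPM. EPCAM, CDH1 and CLDN4 reached at most 0.761, 0.0596 and 0.149 CPM over the 24 libraries. Summed hepatocyte, fibroblast and mural, and leukocyte markers were highest in the divergent library as well, at 4.24, 11.0 and 79.1 CPM. The part of these features in the results was not tested. The responses of the 8 genes in the PURPL guide lines and the counts per list are also given without this library, as are some further values.

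The start regions of 2 genes that responded and of CASP8, which did not pass, are shown first as examples. The RefSeq table (GRCh38.p14) held 10 windows of 250 bases before a start site for 6 of the 8 genes; CASP1 and CASP10 are named only. For APAF1, which rose, the stretch shown is what lies between its GENCODE start and that of IKBIP, a gene on the other strand that begins 28 bp away (chr12:98645114-98645140, plus strand). For CASP2, which fell, and CASP8 it is the part of the window before the first GENCODE exon (chr7:143288101-143288214 and chr2:201233213-201233442, both plus strand). Capitals mark GGGCGG or its reverse complement, the GC box.
APAF1: cacgccccgtccgcggggtaggcgggc
CASP2: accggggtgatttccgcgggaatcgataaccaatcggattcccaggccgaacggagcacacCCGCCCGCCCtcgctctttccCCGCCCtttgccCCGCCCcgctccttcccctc
CASP8: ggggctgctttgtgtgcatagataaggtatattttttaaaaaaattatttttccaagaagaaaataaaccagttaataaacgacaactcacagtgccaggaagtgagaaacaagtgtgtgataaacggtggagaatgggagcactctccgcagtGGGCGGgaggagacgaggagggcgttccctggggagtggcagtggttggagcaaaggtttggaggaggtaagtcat
The stretches differ in base composition, with GC contents of 85.2% for APAF1, 67.5% for CASP2 and 46.1% for CASP8. Over the whole 250 bases the GC content was 73.6%, 71.2% and 45.6%, beside a median of 58.0% in all 35116 promoters, and the GC box, on either strand and with overlapping matches counted, occurred 1, 4 and 1 times. It occurred at least once in 42.6% of all promoters. Base composition did not follow the response over all windows. Among genes that did not pass, the CASP9 windows had 77.6% and 71.6% GC with 8 GC boxes each. CASP6 had 74.0% with 3, CASP4 38.0% with 1, and the further CASP8 windows 42.8% and 55.6% with 0. The second window of CASP2, which fell, had 44.0% with 0. The p53 half-site, the decamer motif that p53 binds in pairs, searched on both strands, was found once in a further start window of CASP9, beginning 188 bases before the start, and once in one of CASP8, beginning 121 bases before it. It occurred in 5.57% of all promoters. Both matches are shown in capitals with their context (chr1:15524959-15524988, minus strand, and chr2:201257904-201257933, plus strand).
CASP9: cggtggcacgAGGCTAGCCCttgggggcgg
CASP8: ctttccaataAAGCATGTCCagcgctcggg
The APAF1, CASP2, CASP6 and CASP4 windows held none, which says only that these letters are not in these windows. A match is a description, not a site of binding.

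Nutlin-3a raised APAF1, CASP10 and CASP1 and lowered CASP2 in both classes of lines, whereas CASP9, CASP8, CASP6 and CASP4 did not pass the test with all 24 libraries. Responses were tested with edgeR's quasi-likelihood F test in 1 model of the 12 group means, with Benjamini-Hochberg adjustment over 16371 genes and a threshold of 0.05. All 8 genes passed the filter on low counts. In the PURPL guide lines 3 of the 8 genes rose and 1 fell, where 17.7% of all genes tested rose and 16.5% fell (34.2% either way). The NTC lines likewise had 3 of the 8 up and 1 down, where 4.18% of all genes rose and 4.03% fell (8.20% either way). The median log2 fold change of the 8 genes was 0.21 in the PURPL guide lines and 0.19 in the NTC lines, beside medians over all genes of 0.05 and -0.02. Without the divergent library 5 of the 8 rose and 1 fell in the PURPL guide lines (all genes 15.9% and 22.7%, 38.5% either way), and 3 rose and 1 fell in the NTC lines (all genes 8.88% and 15.9%, 24.8% either way). All Nutlin-3a libraries lay above all DMSO libraries for 1 of the 8 genes in the PURPL guide lines (5.03% of all genes) and for 4 in the NTC lines (11.1%). They lay below for 1 of the 8 in each class (10.8% and 12.6%). These p-values measure the spread between the 2 harvests of a line, not between lines. In bulk RNA, fewer cells with a transcript and less of it per cell cannot be told apart.

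**Figure D1:**
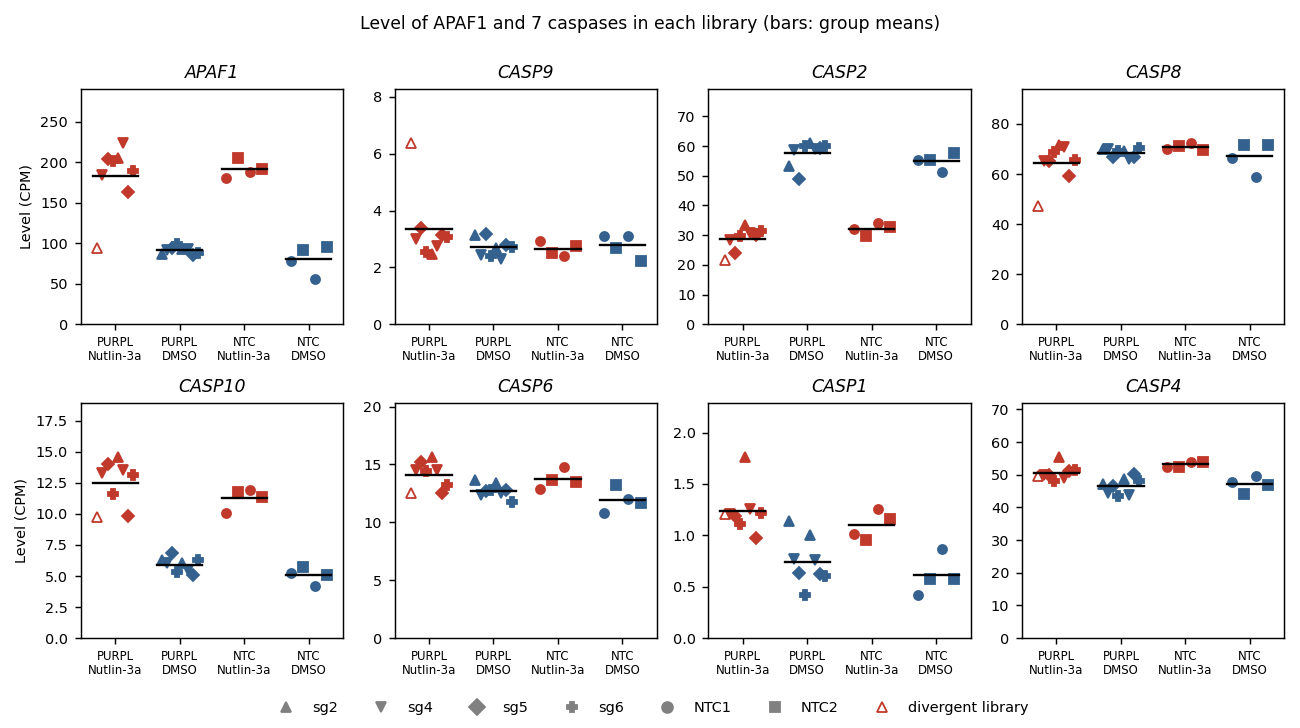
Level of each gene in every library, in CPM on linear axes from 0, with the PURPL guide lines left of the NTC lines and Nutlin-3a (red) left of DMSO (blue); bars are group means and the open triangle is the divergent library. APAF1 and CASP10 lie higher with Nutlin-3a and CASP2 lower, the divergent library being the exception for APAF1 at 94.5 CPM.

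APAF1, the scaffold of the apoptosome (ENSG00000120868.13; hg38 chromosome 12, 98645141 to 98735433, plus strand), had 5200 to 17040 counts per library. In the PURPL guide lines it lay at 94.5, 195 and 223 CPM (lowest, median and highest of 8 libraries) with Nutlin-3a, against 85.4, 92.1 and 98.9 CPM in DMSO. The lowest Nutlin-3a value was that of the divergent library, and the other 7 Nutlin-3a libraries, at 163 CPM or more, all lay above every DMSO library. Among NTC lines it stood at 181 and 188 CPM in NTC1 and 205 and 192 CPM in NTC2 with Nutlin-3a, against 77.6 and 56.2 CPM in NTC1 and 91.7 and 95.5 CPM in NTC2 in DMSO (harvests 1 and 3). All 4 treated libraries lay above all 4 vehicle libraries, and harvest 3 of NTC1 was the lowest in DMSO. APAF1 rose by 0.99 (SE 0.13, edgeR adjusted p = 3.37e-05) on the log2 scale in the PURPL guide lines and by 1.27 (SE 0.18, edgeR adjusted p = 0.000276) in the NTC lines. The values were 1.09 (SE 0.07) and 1.24 (SE 0.09) when the divergent library was left out. The libraries with the lowest APAF1 in DMSO and, apart from the divergent one, with Nutlin-3a were harvest 3 of NTC1 and harvest 3 of sg5, whose GC slopes were 0.245 and 0.271, the highest of the other 23. APAF1 transcripts had a mean GC content of 40.4%, the lowest of the 8 genes; the part of GC content was not tested.

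IKBIP, the head-to-head neighbour of APAF1, was measured at 154 to 423 CPM with Nutlin-3a and 181 to 251 CPM in DMSO in the PURPL guide lines. The lowest Nutlin-3a value was that of the divergent library, and the other 7, at 298 CPM or more, lay above every DMSO library. The NTC lines had it at 319 to 399 CPM with Nutlin-3a and 182 to 261 CPM in DMSO. It rose by 0.60 (SE 0.15, edgeR adjusted p = 0.00744) in the PURPL guide lines and by 0.72 (SE 0.21, edgeR adjusted p = 0.0491) in the NTC lines, both log2, and by 0.72 (SE 0.08) and 0.69 (SE 0.11) without the divergent library. The pair thus responded in the same direction. ANKS1B overlaps the end of APAF1 on the opposite strand, and whether reads were counted by strand is not given in the sources used here.

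CASP9, the initiator caspase of the apoptosome (ENSG00000132906.18; chromosome 1, 15490832 to 15526534, minus strand), was low, with 161 to 557 counts per library. With Nutlin-3a it lay at 2.47, 3.03 and 6.36 CPM (lowest, median and highest) in the PURPL guide lines, against 2.31, 2.71 and 3.18 CPM in DMSO. The highest value was that of the divergent library, and the remaining Nutlin-3a libraries, up to 3.38 CPM, overlapped DMSO. NTC lines had CASP9 at 2.93 and 2.41 CPM in NTC1 and 2.51 and 2.75 CPM in NTC2 with Nutlin-3a, against 3.12 and 3.12 CPM in NTC1 and 2.68 and 2.24 CPM in NTC2 in DMSO, and the treatments overlapped here too. Neither response passed: the log2 fold change was 0.28 (SE 0.15, edgeR adjusted p = 0.151) in the PURPL guide lines and -0.06 (SE 0.21, edgeR adjusted p = 0.942) in the NTC lines, and 0.06 (SE 0.09) in the PURPL guide lines without the divergent library. CASP9 transcripts had the highest GC content of the 8, at 55.8%. CELA2B overlaps CASP9 on the opposite strand.

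CASP2, the initiator caspase of the PIDDosome (ENSG00000106144.20; chromosome 7, 143288215 to 143307696, plus strand), was the 1 gene of the 8 that fell. In the PURPL guide lines it lay at 21.7, 29.9 and 33.5 CPM (lowest, median and highest) with Nutlin-3a, against 49.0, 59.1 and 60.9 CPM in DMSO. Every Nutlin-3a library was below every DMSO library, the divergent library being the lowest. Levels in the NTC lines were 32.2 and 34.0 CPM in NTC1 and 29.6 and 32.8 CPM in NTC2 with Nutlin-3a, against 55.2 and 51.3 CPM in NTC1 and 55.4 and 57.5 CPM in NTC2 in DMSO. The treatments did not overlap here either. CASP2 fell by 1.00 (SE 0.08, edgeR adjusted p = 5.37e-07) in the PURPL guide lines and by 0.77 (SE 0.12, edgeR adjusted p = 0.000636) in the NTC lines on the log2 scale, and by 0.94 (SE 0.06) and 0.81 (SE 0.08) without the divergent library. Over the 6 lines, the level with Nutlin-3a was 0.483 to 0.622 times that in DMSO.

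CASP8 and CASP10 encode the initiator caspases of death receptors and lie next to each other on chromosome 2, plus strand, with CFLAR, which encodes a regulator related to caspase-8. CFLAR ends 6194 bp before CASP10 (ENSG00000003400.14; 201182881 to 201229406), and CASP10 ends 4037 bp before CASP8 (ENSG00000064012.21; 201233443 to 201287711). CASP10 was at 9.76, 13.2 and 14.6 CPM (lowest, median and highest) with Nutlin-3a in the PURPL guide lines, against 5.06, 6.06 and 6.84 CPM in DMSO. Among NTC lines CASP10 was at 10.0 and 11.9 CPM in NTC1 and 11.8 and 11.3 CPM in NTC2 with Nutlin-3a, against 5.21 and 4.22 CPM in NTC1 and 5.75 and 5.11 CPM in NTC2 in DMSO. The treatments did not overlap in either class, the divergent library included. CASP10 rose by 1.07 (SE 0.11, edgeR adjusted p = 3.83e-06) in the PURPL guide lines and by 1.15 (SE 0.16, edgeR adjusted p = 0.000187) in the NTC lines on the log2 scale, and by 1.13 (SE 0.09) and 1.12 (SE 0.12) without the divergent library. Over the 6 lines the fold ranged from 1.98 in sg2 to 2.33 in NTC1. Without the divergent library sg2 had the highest fold of the 6, at 2.37, and sg5 the lowest, at 2.00. That value of sg2 sets Nutlin-3a harvest 3 against the mean of both DMSO harvests.

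CASP8 lay at 47.4, 65.4 and 71.7 CPM (lowest, median and highest) with Nutlin-3a in the PURPL guide lines, against 65.9, 69.2 and 70.4 CPM in DMSO. The NTC lines were at 69.8 and 72.2 CPM in NTC1 and 71.0 and 69.4 CPM in NTC2 with Nutlin-3a, against 66.4 and 58.9 CPM in NTC1 and 71.5 and 71.6 CPM in NTC2 in DMSO. The treatments overlapped in both classes, and the lowest value was again that of the divergent library. The log2 fold change was -0.10 (SE 0.07, edgeR adjusted p = 0.287) in the PURPL guide lines and 0.08 (SE 0.10, edgeR adjusted p = 0.796) in the NTC lines, and -0.04 (SE 0.04) in the PURPL guide lines without the divergent library. The neighbour CFLAR rose by 0.14 (SE 0.05, edgeR adjusted p = 0.0426) in the PURPL guide lines and by 0.26 (SE 0.07, edgeR adjusted p = 0.0349) in the NTC lines on the log2 scale. Differences in response between these neighbours were not tested.

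CASP6 encodes an effector caspase that cleaves lamins (ENSG00000138794.10; chromosome 4, 109688622 to 109703583, minus strand). It was at 12.5, 14.5 and 15.6 CPM (lowest, median and highest) with Nutlin-3a in the PURPL guide lines, against 11.7, 12.7 and 13.6 CPM in DMSO. Among NTC lines it was at 12.9 and 14.8 CPM in NTC1 and 13.6 and 13.5 CPM in NTC2 with Nutlin-3a, against 10.8 and 12.0 CPM in NTC1 and 13.2 and 11.7 CPM in NTC2 in DMSO. The treatments overlapped in both classes although the line means were higher with Nutlin-3a in 6 of 6 lines. The log2 fold change was 0.14 (SE 0.07, edgeR adjusted p = 0.115) in the PURPL guide lines and 0.20 (SE 0.10, edgeR adjusted p = 0.272) in the NTC lines. Leaving out the divergent library gave 0.17 (SE 0.06, edgeR adjusted p = 0.0279) in the PURPL guide lines, which passed. A filter at 1 CPM called CASP6 in the PURPL guide lines as well. It was called in 2 of 30 alternatives there and in 0 of 30 in the NTC lines. MCUB and AC004067.1 overlap CASP6 on the opposite strand.

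The inflammatory caspase genes lie on chromosome 11, minus strand, with the related genes CASP5 and CARD16 among them. CASP1 (ENSG00000137752.24; 105025443 to 105035250), which processes interleukin-1 beta, had 28 to 129 counts per library, fewer than any other of the 8 genes, and not whole in 12 of 24 libraries. Reads shared with CARD16, a close relative, can have been split between them, so CASP1 is the least certain of the 8. CASP1 was at 0.973, 1.21 and 1.76 CPM (lowest, median and highest) with Nutlin-3a in the PURPL guide lines, against 0.417, 0.696 and 1.14 CPM in DMSO. Those treatments overlapped because sg2 was high in both, at 1.14 and 1.00 CPM in DMSO. NTC lines had CASP1 at 1.01 and 1.26 CPM in NTC1 and 0.954 and 1.16 CPM in NTC2 with Nutlin-3a, against 0.423 and 0.864 CPM in NTC1 and 0.578 and 0.576 CPM in NTC2 in DMSO, without overlap. It rose by 0.78 (SE 0.15, edgeR adjusted p = 0.000992) in the PURPL guide lines and by 0.84 (SE 0.21, edgeR adjusted p = 0.0194) in the NTC lines on the log2 scale, and by 0.83 (SE 0.14) and 0.80 (SE 0.19) without the divergent library. The call in the NTC lines was lost in 7 of 30 alternatives: with no filter on low counts, and without harvest 1 of NTC1, harvest 1 of NTC2, harvest 3 of NTC2 or harvest 3 of sg4 in DMSO, or harvest 3 of NTC1 or of NTC2 with Nutlin-3a. Over those 30 its adjusted p ranged up to 0.113 and its log2 fold change between 0.54 and 1.12 (without harvest 1 and without harvest 3 of NTC1 in DMSO).

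CASP4, which senses bacterial lipopolysaccharide in the cytosol (ENSG00000196954.14; 104942866 to 104969436), had 2911 to 4599 counts per library. It lay at 48.2, 49.8 and 55.4 CPM (lowest, median and highest) with Nutlin-3a in the PURPL guide lines, against 43.3, 46.9 and 50.3 CPM in DMSO. The NTC lines stood at 52.5 and 53.9 CPM in NTC1 and 52.4 and 54.0 CPM in NTC2 with Nutlin-3a, against 47.9 and 49.7 CPM in NTC1 and 44.1 and 46.9 CPM in NTC2 in DMSO. The treatments did not overlap in the NTC lines and did in the PURPL guide lines. The log2 fold change was 0.12 (SE 0.05, edgeR adjusted p = 0.0553) in the PURPL guide lines and 0.18 (SE 0.06, edgeR adjusted p = 0.125) in the NTC lines. Leaving out the divergent library gave 0.13 (SE 0.04, edgeR adjusted p = 0.0179) in the PURPL guide lines, which passed, and 0.14 (SE 0.05, edgeR adjusted p = 0.0608) in the NTC lines. By DESeq2 CASP4 was called in both, with adjusted p = 0.00273 and 0.00217. A filter at 1 CPM also called it in both, and scaling by RLE size factors in the PURPL guide lines. It was called in 5 of 30 alternatives in the PURPL guide lines and 3 of 30 in the NTC lines. CASP5, between CASP4 and CASP1, reached at most 0.0142 CPM and CARD16 at most 0.137 CPM over the 24 libraries.

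**Figure D2:**
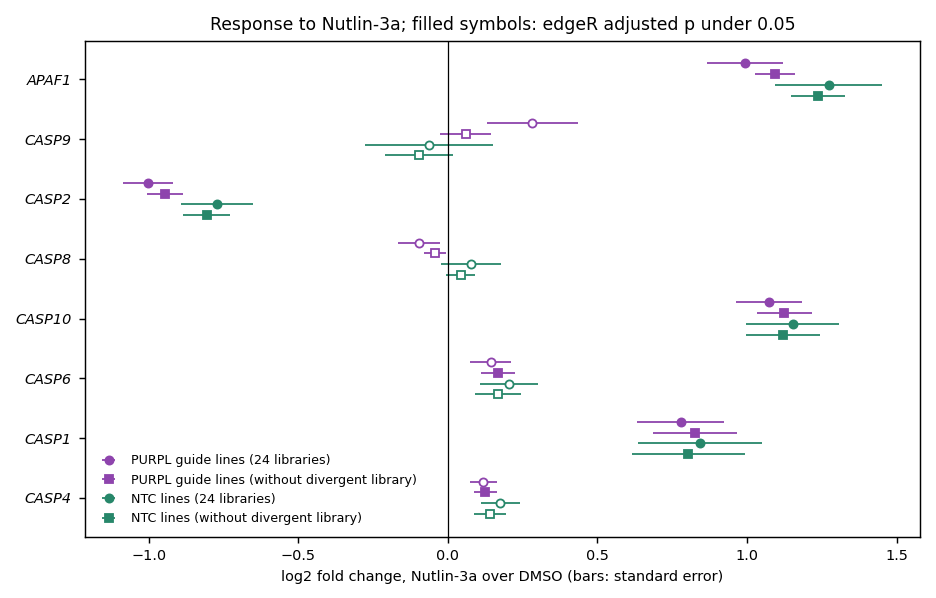
Log2 fold change of Nutlin-3a over DMSO (points) with its standard error (bars) for each gene in the PURPL guide lines (purple) and the NTC lines (green), with all 24 libraries (circles) and without the divergent library (squares); filled symbols passed edgeR's test at an adjusted p of 0.05. APAF1, CASP10, CASP1 and CASP2 are filled throughout, and CASP6 and CASP4 only in the PURPL guide lines without the divergent library.

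Line by line, the 4 genes that changed did so in the same direction in 6 of 6 lines. The log2 ratio of line means for APAF1 ran from 0.74 in sg2 to 1.46 in NTC1. Without the divergent library it was 1.19 in sg2, from Nutlin-3a harvest 3 over the mean of both DMSO harvests. For CASP2 it ran from -1.05 in sg2 to -0.69 in NTC1, with -0.77 in sg2 without the divergent library. CASP1 had its highest ratio in sg6, at 1.19, and its lowest in sg2, at 0.47. Without the divergent library sg2 had 0.71, and sg4 was then the lowest, at 0.69. CASP4 was also higher with Nutlin-3a in 6 of 6 lines, by 0.06 to 0.23, and CASP6 by 0.06 to 0.28. CASP8 was higher in 2 lines and lower in 4, and CASP9 higher in 5 and lower in 1. Without the divergent library, CASP8 was higher in 3 and lower in 3, and CASP9 higher in 4 and lower in 2.

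**Figure D3:**
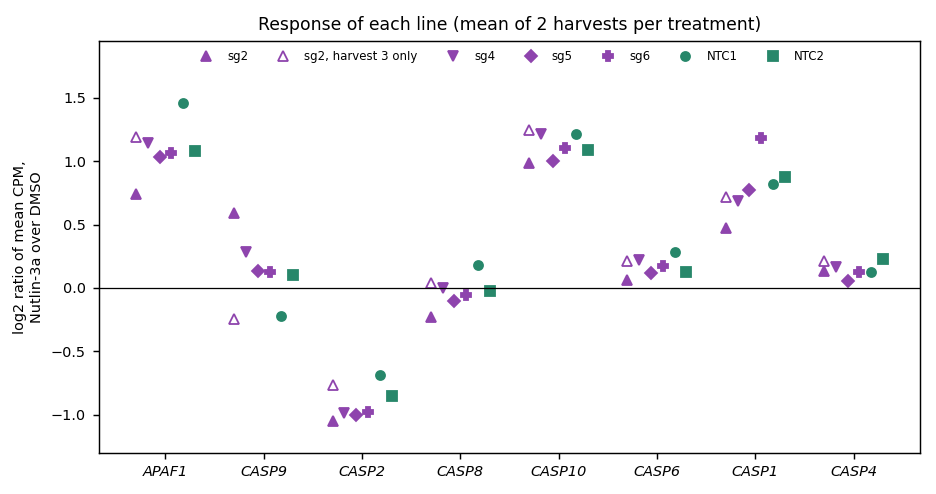
Log2 ratio of mean CPM, Nutlin-3a over DMSO, in each line (PURPL guide lines purple, NTC lines green). The open triangle is sg2 without the divergent library, as Nutlin-3a harvest 3 over the mean of both DMSO harvests. APAF1, CASP10 and CASP1 lie above 0 and CASP2 below 0 in all 6 lines, and the CASP9 value of sg2 is 0.59 with both harvests and -0.24 with harvest 3 alone.

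A separate question was whether guides against PURPL altered these genes. None of the 8 passed in the comparison of the 4 PURPL guide lines with the 2 NTC lines, in which the line was the replicate. In DMSO edgeR called 0 of the 8 genes, 0 had an unadjusted p under 0.05 and DESeq2 called 0; over all 16649 genes tested 0.00601% were called, which was PURPL itself. The smallest p belonged to CASP10, whose log2 difference was 0.23 (SE 0.10, edgeR unadjusted p = 0.0596, adjusted p = 0.825). Its line means were 6.15 CPM in sg2, 5.80 CPM in sg4, 5.95 CPM in sg5 and 5.77 CPM in sg6, against 4.72 CPM in NTC1 and 5.43 CPM in NTC2. CASP10 was the 1 gene of the 8 with all 4 PURPL guide lines above both NTC lines, which held for 5.37% of all genes; none had all 4 below, which held for 4.58%. For APAF1 the log2 difference was 0.19 (SE 0.12, edgeR adjusted p = 0.825). Its line means lay between 89.8 and 93.6 CPM in the PURPL guide lines, against 66.9 CPM in NTC1 and 93.6 CPM in NTC2. With NTC2 left out, so that NTC1 was the lone non-targeting line and was assumed to vary like the others, APAF1 (log2 difference 0.47) and CASP10 (0.34) were called along with 3080 of all genes up and 3248 down (edgeR adjusted p = 3.40e-05 and 0.0144). With NTC1 left out the APAF1 difference was -0.03.

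With Nutlin-3a edgeR again called 0 of the 8 genes between the classes, 0 had an unadjusted p under 0.05 and DESeq2 called 0, while 0% of 16901 genes were called, and 0.00596% (PURPL itself) without the divergent library. PURPL averaged 1.84 ± 0.658 CPM in the PURPL guide lines (SD, n = 8) and 32.7 ± 4.02 CPM in the NTC lines (SD, n = 4). With all libraries edgeR did not call even this difference. Its lack of calls therefore cannot show that the 8 genes were unchanged. Line means of CASP10 and CASP9 were higher in all 4 PURPL guide lines than in both NTC lines, a pattern that 17.8% of all genes had. Those of CASP2, CASP8 and CASP4 were lower, as for 17.2% of all genes. With sg2 from harvest 3 alone, the pattern held for CASP10, at 14.6 CPM in sg2 (7.61% of all genes higher), and for no gene of the 8 in the lower direction (8.78% of all genes lower). CASP9 was then at 2.47 CPM in sg2, against 2.67 CPM in NTC1 and 2.63 CPM in NTC2, and CASP2, CASP8 and CASP4 were higher in sg2 than in both NTC lines. CASP2 averaged 27.6 CPM in sg2, 29.7 CPM in sg4, 27.1 CPM in sg5 and 30.5 CPM in sg6, against 33.1 CPM in NTC1 and 31.2 CPM in NTC2. Its log2 difference was -0.17 (SE 0.09, edgeR adjusted p = 0.676), and -0.10 (SE 0.08) without the divergent library. Tested for a difference in response to Nutlin-3a between the classes, edgeR called 0 of the 8 genes, with 1 at an unadjusted p under 0.05 and 0 called by DESeq2 (all genes 0% of 17264). That gene was CASP2, whose response was lower in the PURPL guide lines by a log2 difference of -0.27 (SE 0.10, edgeR unadjusted p = 0.0370, adjusted p = 0.533), or -0.17 (SE 0.10) without the divergent library. For APAF1 the difference of responses was -0.33 (SE 0.19, edgeR adjusted p = 0.533), or -0.18 (SE 0.11) without the divergent library.

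Differences among the 6 lines in DMSO, tested against the spread between harvests, were called for 0 of the 8 genes by edgeR and by DESeq2, and for 0.0183% of all genes (0.0659% without the divergent library). CASP1 alone had an unadjusted p under 0.05 (edgeR unadjusted p = 0.0293, adjusted p = 1.0). Its mean was 1.07 ± 0.0986 CPM in sg2 (SD, n = 2 harvests), and the other lines lay between 0.511 CPM in sg6 and 0.764 CPM in sg4. With Nutlin-3a sg2 was highest as well, at 1.49 CPM.

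Levels of different genes were compared per kilobase of exon. With Nutlin-3a APAF1 stood first at 23.5 ± 4.11 CPM per kb (SD, n = 12 libraries), CASP8 followed at 9.16 ± 0.971, and then came CASP6 at 7.18 ± 0.534, CASP4 at 7.08 ± 0.312 and CASP2 at 3.72 ± 0.463 CPM per kb. CASP10 at 1.59 ± 0.219, CASP9 at 0.591 ± 0.203 and CASP1 at 0.322 ± 0.0564 CPM per kb were the lowest. In DMSO the order was APAF1 at 11.1 ± 1.44, CASP8 at 9.40 ± 0.483, CASP2 at 7.06 ± 0.477, CASP4 at 6.44 ± 0.327 and CASP6 at 6.42 ± 0.416, followed by CASP10 at 0.742 ± 0.0935, CASP9 at 0.520 ± 0.0657 and CASP1 at 0.189 ± 0.0593 CPM per kb. CASP2 was thus at rank 5 with Nutlin-3a and rank 3 in DMSO. Ranges were compared across libraries and not within each library, so an overlap does not mean that the order changed within libraries. Neighbours whose ranges over libraries overlapped were CASP8 with CASP6, CASP6 with CASP4, and CASP9 with CASP1 with Nutlin-3a. In DMSO they were APAF1 with CASP8, CASP2 with CASP4, CASP4 with CASP6, and CASP10 with CASP9. Without the divergent library CASP8 no longer overlapped CASP6 with Nutlin-3a, at 8.17 CPM per kb or more against 8.04 CPM per kb or less.

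**Figure D4:**
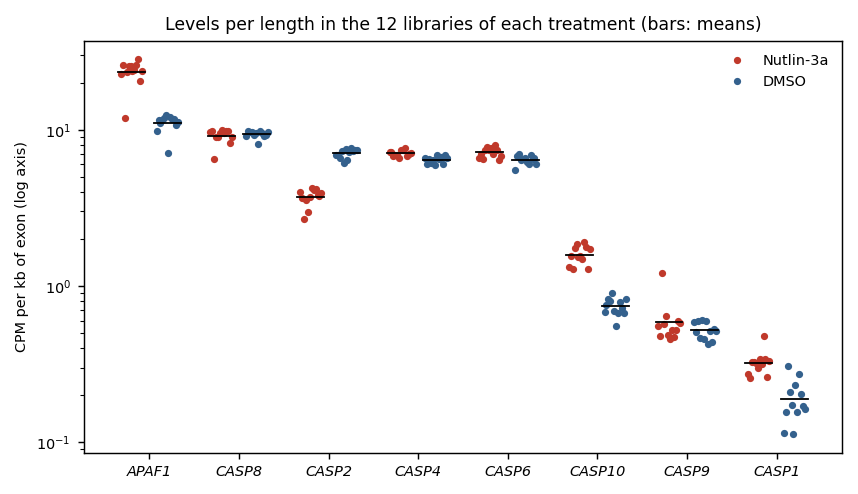
Level per kilobase of exon (log axis) of each gene in the 12 libraries of each treatment, Nutlin-3a (red) left of DMSO (blue), with means as bars. APAF1, CASP8, CASP2, CASP4 and CASP6 lie above 2 CPM per kb in both treatments and CASP10, CASP9 and CASP1 below 2.

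The other genes of these pathways were taken from 5 lists, which follow the complexes that activate caspases and the steps after them.

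The death receptor genes FAS, TNFRSF10B and TNFRSF10A rose in both classes, whereas TNFRSF1A, a receptor of tumour necrosis factor, did not pass in either. Its log2 fold change was 0.33 (SE 0.15, edgeR adjusted p = 0.0953) in the PURPL guide lines, 0.08 (SE 0.05) there without the divergent library, and -0.01 (SE 0.21, edgeR adjusted p = 0.988) in the NTC lines. In the PURPL guide lines 4 of 12 tested genes of the death receptor complex rose and 2 fell, and the same counts held in the NTC lines. Over all genes 34.2% were called in the PURPL guide lines and 8.20% in the NTC lines. When the divergent library was left out, 5 rose and 3 fell in the PURPL guide lines and 5 rose and 4 fell in the NTC lines. Over all genes 38.5% and 24.8% were then called. FAS, a death receptor, rose by 1.43 (SE 0.13) and 1.57 (SE 0.18), and the TRAIL receptors TNFRSF10B by 1.20 (SE 0.04) and 1.17 (SE 0.06) and TNFRSF10A by 1.04 (SE 0.06) and 1.06 (SE 0.09), on the log2 scale in the PURPL guide and NTC lines. CASP8AP2, which encodes a protein named for binding caspase-8, fell by 1.22 (SE 0.13) and 0.82 (SE 0.19). MLKL, the effector of necroptosis, fell by 0.32 (SE 0.06) and 0.38 (SE 0.09). FADD, the adaptor between receptor and caspase, had -0.21 (SE 0.13, edgeR adjusted p = 0.203) and -0.54 (SE 0.18, edgeR adjusted p = 0.0877), and without the divergent library it fell by 0.35 and 0.58 (edgeR adjusted p = 0.0152 and 0.00529).

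Among 14 tested genes of the apoptosome, of cytochrome c release and of IAP proteins, 4 rose and 1 fell in the PURPL guide lines, and 1 rose and 1 fell in the NTC lines. These are 35.7% and 14.3% of the list, beside 34.2% and 8.20% of all genes, so the share in the PURPL guide lines was near that of all genes. Without the divergent library these counts were 4 and 2 in the PURPL guide lines and 3 and 2 in the NTC lines, beside 38.5% and 24.8% of all genes. The pore-forming genes BAX and BAK1 rose by 1.49 (SE 0.27) and 1.29 (SE 0.17) in the PURPL guide lines, and by 1.04 (SE 0.14) and 1.05 (SE 0.11) without the divergent library, in which BAX stood at 204 CPM, against at most 65.4 CPM in the other 7. In the NTC lines their log2 fold changes of 0.61 (SE 0.37) and 0.70 (SE 0.24) passed only without the divergent library, at 0.58 and 0.66 (edgeR adjusted p = 0.0355 and 0.00257). BIRC5, or survivin, fell by 0.37 (SE 0.08) and 0.45 (SE 0.11), and BIRC3, an inhibitor of apoptosis, rose by 0.32 (SE 0.12) and 0.63 (SE 0.16). SEPT4, whose ARTS isoform antagonises XIAP, was near the floor, with 0 to 16 counts per library. It averaged 0.117 CPM with Nutlin-3a and 0.0272 CPM in DMSO in the PURPL guide lines, where it rose by 2.05 (SE 0.37) on the log2 scale, and had -0.67 (SE 0.56, edgeR adjusted p = 0.615) in the NTC lines. The difference of these responses was 2.69 (SE 0.48, edgeR unadjusted p = 0.00108) and did not pass over all genes (adjusted p = 0.533). CYCS, which encodes cytochrome c, and DIABLO, which encodes an IAP antagonist, did not pass in either class.

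In the caspase-2 list of 5 genes, 3 rose and 1 fell in the PURPL guide lines, and 1 rose and 1 fell in the NTC lines (80.0% and 40.0% of the list, beside 34.2% and 8.20% of all genes). With the divergent library left out 2 rose and 2 fell in both, beside 38.5% and 24.8% of all genes. PIDD1, the scaffold that activates caspase-2, rose by 2.70 (SE 0.49) in the PURPL guide lines, and by 1.63 (SE 0.22) without the divergent library. Its log2 fold change in the NTC lines was 1.19 (SE 0.68, edgeR adjusted p = 0.385), which passed without the divergent library at 1.15 (SE 0.30, edgeR adjusted p = 0.00895). MDM2, a caspase-2 substrate and target of p53, rose by 3.09 (SE 0.16) and 3.22 (SE 0.22) in the PURPL guide and NTC lines. It was also named beforehand as a check of the drug, and the shares of the list called include it. With all libraries it was the 1 gene of the list that rose in the NTC lines.

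Of 15 tested inflammasome and pyroptosis genes, 7 rose and 1 fell in the PURPL guide lines and 3 rose and 0 fell in the NTC lines (3 of the 15 had an unadjusted edgeR p under 0.05 in the NTC lines and DESeq2 called 3). These are 53.3% and 20.0% of the list, beside 34.2% and 8.20% of all genes. Without the divergent library 4 rose and 1 fell in the PURPL guide lines, against 38.5% of all genes either way. The NTC lines kept 3 up and 0 down, against 24.8% of all genes. The share of the list was then not above that of all genes in either class. IL1B, whose product caspase-1 cleaves, rose by 2.27 (SE 0.11) and 2.09 (SE 0.16). NLRP1, a sensor that activates caspase-1, rose by 1.32 (SE 0.13) and 0.96 (SE 0.18). In the divergent library NLRP1 stood at 63.0 CPM, against at most 32.3 CPM in the other 7 PURPL guide libraries with Nutlin-3a. GSDME, a further gasdermin, rose by 0.47 (SE 0.05) and 0.45 (SE 0.07). GSDMD, the gasdermin of caspase-1 and caspase-4, and the adaptor PYCARD passed in the PURPL guide lines with all libraries, at 1.10 (SE 0.37) and 1.33 (SE 0.45), and not without the divergent library, at 0.32 (SE 0.16) and 0.49 (SE 0.26). AIM2 and NLRC4, further sensors, reached at most 0.0148 and 0.0142 CPM.

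Of 13 execution-phase substrates and nucleases, 2 rose and 3 fell in the PURPL guide lines and 0 rose and 1 fell in the NTC lines (1 of the 13 had an unadjusted edgeR p under 0.05 in the NTC lines and DESeq2 called 1). These are 38.5% and 7.69% of the list, near the 34.2% and 8.20% of all genes. Without the divergent library 2 rose and 5 fell in the PURPL guide lines and 0 rose and 3 fell in the NTC lines. The shares of all genes called were then 38.5% and 24.8%. LMNB1, a lamin cut during apoptosis, fell by 1.03 (SE 0.08) and 0.79 (SE 0.11) in the PURPL guide and NTC lines. LMNA, the lamin cleaved by caspase-6, rose by 1.23 (SE 0.31) in the PURPL guide lines, by 0.58 (SE 0.10) there without the divergent library, and had 0.28 (SE 0.43, edgeR adjusted p = 0.842) in the NTC lines. The median log2 fold change of the death receptor list was 0.23 in the PURPL guide lines and -0.0034 in the NTC lines, beside 0.05 and -0.02 over all genes; without the divergent library it was 0.06 in the PURPL guide lines. That of the apoptosome list was 0.0013 and -0.014, of the caspase-2 list 0.22 and -0.026, of the inflammasome list 0.30 and 0.062, and of the execution list -0.084 and -0.0038. In the guide comparisons edgeR called 0 of 58 list genes in DMSO, 0 of 59 with Nutlin-3a and 0 of 60 for the difference of responses, where 2, 1 and 1 had an unadjusted p under 0.05 and DESeq2 called 0 in each.

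**Figure D5:**
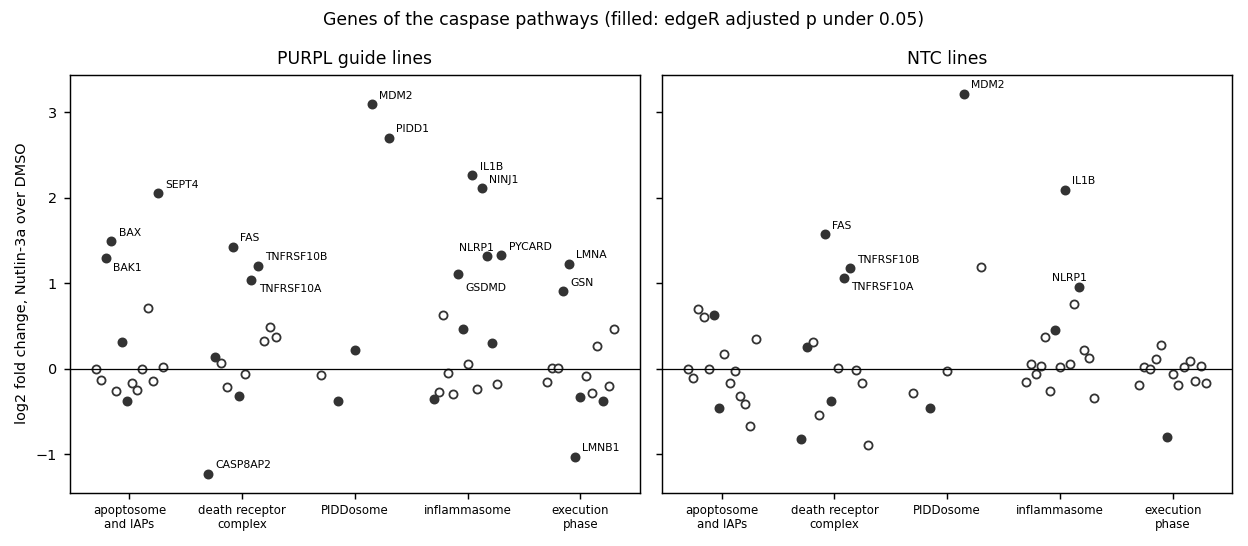
Log2 fold change of Nutlin-3a over DMSO for each tested gene of 5 pathway lists, in the PURPL guide lines (left) and the NTC lines (right); filled points passed edgeR's test at an adjusted p of 0.05 with all 24 libraries, and named points passed with a change over 0.9. The receptors FAS, TNFRSF10B and TNFRSF10A lie above 1 in both panels, and PIDD1 is filled on the left only.

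Genes whose levels ran most alike with each gene were sought over the 23 libraries without the divergent one, by Pearson r of log2(CPM + 0.5) among 12142 genes that averaged at least 1 CPM. The libraries fall into 2 treatments, so for the nearest gene of each the values within the 11 Nutlin-3a and 12 DMSO libraries are given as well. No test was made. CASP2 ran most closely with MCM10, a DNA replication factor (r = 0.992; 0.892 within Nutlin-3a and 0.900 within DMSO), FAM111B (0.990) and the cell cycle phosphatase gene CDC25A (0.989). For APAF1 the nearest were CSNK1G1 (0.993; 0.913 within Nutlin-3a and 0.930 within DMSO), OSBPL3 and HSPA4L. CASP10 had C2orf88 (0.985, with 0.862 within Nutlin-3a and 0.806 within DMSO), BBS4 and FAM210B. CASP8 had ZNF614 (0.902, with 0.939 within Nutlin-3a and 0.920 within DMSO), NRDC and PDCD6IP. The genes most alike with CASP9 were OGDHL (0.859, with 0.889 within Nutlin-3a and 0.872 within DMSO), TNFRSF1A and PDK2. Their transcript GC contents were 58.8%, 55.5% and 58.0%, beside 55.8% for CASP9. CASP6 had YPEL5 (0.890, with 0.888 within Nutlin-3a and 0.659 within DMSO) and CAV1 (0.877, with 0.880 and 0.628). CASP4 had NEAT1 (0.847, with 0.735 within Nutlin-3a and 0.580 within DMSO), ZNF671 and MIR34AHG. The last, the host gene of a p53-induced microRNA, had 0.835, with 0.620 within Nutlin-3a and 0.632 within DMSO. Among the genes themselves, APAF1 and CASP10 had an r of 0.969, and CASP2 had -0.916 with APAF1 and -0.935 with CASP10 over the same 23 libraries.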

How the data were processed

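The deposited table gives, for 24 libraries, expected counts per gene, estimated by RSEM and not always whole; the submitters' processing notes name cutadapt, STAR, RSEM and DESeq2 with hg38, while the sources used here give neither versions nor the strand setting. Values with a fraction made up 5.60% to 7.16% per library. The 45 rows of the second pseudoautosomal copy, with 0.0222% of counts, were added to their X rows, which left 58825 genes, and counts were rounded.

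Counts were filtered with filterByExpr (minimum count 10), scaled with TMM and tested with the robust quasi-likelihood F test of edgeR 4.0.16 (R 4.3.3), with Benjamini-Hochberg adjustment over all genes tested and a threshold of 0.05. Nutlin-3a responses and differences among lines came from 1 model of the 12 group means with 12 residual degrees of freedom. Guide comparisons used the sum of the 2 harvests of a line, and the difference of responses used 12 sums with a term per line. Alternatives were RLE size factors, other filters, DESeq2 1.42.0, a block for the harvest number, fewer libraries, and each library or line left out; the tests were checked on simulated data. Harvests of 1 group differed by more than sampling noise, so they were kept as separate libraries in the model of group means. CPM per kb used union exon lengths from GENCODE 29, in which 58552 IDs were found without their version and 47420 with it. Counting error covers sampling of reads only. Named genes were the 8 genes, checks of drug and guides, up to 4 genes per list by p in each response and up to 2 in each guide comparison, the 3 genes most alike with each gene averaging 1 CPM, and annotated neighbours; some of them are given by count only. CYCS, DIABLO, TNFRSF1A, FADD, MLKL, GSDMD, PYCARD, AIM2, NLRC4, and BIRC3 and CFLAR in the PURPL guide lines, fall outside that rule and were named after their values were seen. Some other genes are not reported here. The 8 genes and the lists were chosen with earlier results of these data known.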

Additional observations from a re-analysis of the deposited data

Results flagged for a closer look

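Within the 8 PURPL guide line libraries with Nutlin-3a, 4 single values lay far from the rest of their group by Dixon's criterion, out of 32 groups of 4 or 8 libraries examined; chance flags about 1 in 20 groups. For APAF1 the lowest library was harvest 1 of sg2 at 94.5 CPM, with the others between 163 and 223 CPM. For CASP9 the same library was the highest at 6.36 CPM, with the others between 2.47 and 3.38 CPM. This is the divergent library with the GC slope of 1.27, APAF1 transcripts having 40.4% GC and CASP9 transcripts 55.8%. CASP2, CASP8 and CASP10 (49.6%, 44.1% and 45.8% GC) were also lowest in it, at 21.7, 47.4 and 9.76 CPM, without being flagged. CASP6, CASP1 and CASP4 (45.8%, 43.1% and 42.9% GC) were at neither end of the group in it. The part of GC content was not tested. For CASP1 the highest library was harvest 3 of sg2 at 1.76 CPM, with the others between 0.973 and 1.26 CPM. For CASP4 it was again harvest 3 of sg2, at 55.4 CPM, with the others between 48.2 and 51.5 CPM; its GC slope was -0.0588.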

How the results depend on the processing

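APAF1, CASP10 and CASP2 passed in 30 of 30 alternatives in both Nutlin-3a responses, CASP1 in 30 of 30 in the PURPL guide lines and 23 of 30 in the NTC lines. In the PURPL guide lines a filter at 1 CPM called 5 of the 8 genes up. The share of all genes called with that filter is not given here, so this count has nothing to be read beside. In the same lines leaving out single libraries gave 3 to 5 of the 8 up and 1 to 2 down. In the NTC lines this gave 2 to 3 up. Counts over all genes in the NTC lines were 322 down with no filter on low counts and 1782 up and 1869 down with only the 8 NTC libraries; leaving out single libraries gave 357 to 1482 up and 432 to 2655 down. In the PURPL guide lines they were 1769 down with no filter, 1413 up with only the 16 PURPL guide libraries, and 1567 to 5696 up and 2238 to 5525 down. In the guide comparison in DMSO, all genes gave 1 up with no filter and 8 up and 4 down by DESeq2; leaving out a library or line gave 0 to 3080 up, 0 to 3248 down and 0 to 2 of the 8 genes up, the upper ends without NTC2. With Nutlin-3a DESeq2 gave 1 up and 2 down, and leaving out libraries 0 to 1 down. For the difference of responses DESeq2 gave 2 up, and leaving out a library or line 0 to 1 up. Among the 6 lines 8 genes were called with no filter, 31 by DESeq2, and 2 to 11 without single libraries.

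Directions that turned belonged to differences that did not pass with all libraries and lines; of the ends below, that of APAF1 without NTC2 passed. Over libraries and lines left out, the DMSO guide difference (log2) ran from -0.034 to 0.47 for APAF1, -0.21 to 0.14 for CASP9, -0.059 to 0.13 for CASP8 and -0.078 to 0.034 for CASP4. With Nutlin-3a it ran from -0.17 to 0.043 for APAF1 and -0.011 to 0.082 for CASP6, and the difference of responses for CASP1 from -0.40 to 0.094. The causes were not tested.

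Harvest numbers were not taken to pair the samples, because r was over 0.1 in 4 of the 6 lines and not in all: deviations of same-numbered libraries had r of 0.125 in NTC1, -0.0904 in NTC2, 0.290 in sg2, 0.0446 in sg4, 0.579 in sg5 and 0.449 in sg6. With the harvest number as a block, 4 of the 8 genes rose in the PURPL guide lines, CASP4 being added, and 3 in the NTC lines. Over all 16371 genes 2699 and 731 rose and 2722 and 686 fell. In the guide comparison with Nutlin-3a the block gave 1 gene down.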
